A study of Mus musculus with 6 samples.

Results

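The mitochondrial carrier family and the uncoupling proteins were described in left ventricular RNA of mouse hearts, as all genes of the deposited table whose symbol is Slc25a followed by a number, or Ucp1, Ucp2 or Ucp3. The rule found 39 of the 12072 genes in the table, 37 Slc25a genes with Ucp2 and Ucp3. Another 11 annotated symbols that fit the rule, among them Ucp1 and Slc25a18, were not analysed here. The comparison was of CS-Mpc2-/- mice, labelled as lacking Mpc2, with fl/fl mice, which carry the floxed genotype. All mice ate chow and were 30 weeks old. Each group had 6 mice, and RNA of 2 hearts was pooled per library, giving 3 libraries a group. The labels do not spell out "CS" or name the driver of recombination, and they give no strain or sex. Values are read coverage of a gene per 1000000 units of coverage in its library (ppm).

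Mitochondrial carriers are small proteins of the inner mitochondrial membrane, most of which exchange a solute of the matrix for one of the intermembrane space. They move ADP and ATP, phosphate, acylcarnitines, amino acids, keto acids and cofactors, and so join the matrix enzymes of oxidation to the rest of the cell. The pyruvate carrier, built of Mpc1 and Mpc2, belongs to another protein family. In heart muscle the export of ATP through the ADP/ATP carriers and the entry of acylcarnitines through Slc25a20 serve contraction and fatty acid use.

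Coverage, in units of 1000000 of the smallest steps of the deposited values, was 278 to 319 per library in CS-Mpc2-/- and 92.9, 202 and 389 in fl/fl replicates 1, 2 and 3. Mpc2 had 14.8, 18.2 and 46.3 ppm in CS-Mpc2-/- and 45.2, 38.9 and 27.7 ppm in fl/fl, so the library labelled CS-Mpc2-/- replicate 3 goes against its label. It is kept under its label in every direction given below. Fl/fl replicate 3 also stood apart from the other fl/fl libraries, nearer to CS-Mpc2-/- for many carriers. Whether the labels of these replicates are in order was not tested, and each group difference below rests on them. The summed level of 5 cardiomyocyte markers (Myh6, Tnnt2, Actc1, Ryr2, Pln) was 49900, 56390 and 47380 ppm in CS-Mpc2-/- and 86080, 85560 and 46400 ppm in fl/fl. Only 1 of these 5 was lower in every CS-Mpc2-/- library than in any fl/fl library, against 6.48% of all genes, and 0 were higher. Fibroblast markers (Col1a1, Col1a2, Dcn, Pdgfra, Lum) summed to 1714, 987 and 937 ppm in CS-Mpc2-/- and to 487, 496.5 and 811.5 ppm in fl/fl, with 3 of the 5 higher in every CS-Mpc2-/- library. Of all genes, 8.01% were higher in this way. Of the macrophage markers, Csf1r, C1qa and Mrc1 were listed and all 3 were higher in every CS-Mpc2-/- library, against the same 8.01%. Their sums were 187, 162 and 151 ppm in CS-Mpc2-/- and 103, 118 and 146 ppm in fl/fl. Endothelial sums were 963 to 1213 ppm in CS-Mpc2-/- and 1045 to 1098 ppm in fl/fl, and smooth muscle sums 480.0 to 505 and 480.0 to 547 ppm. Of the 5 markers of each of these types, 1 was higher in every CS-Mpc2-/- library. Erythroid sums were 468 to 920 and 567 to 836 ppm, and the 1 adipocyte marker listed, Cidea, had 7.60 to 14.2 and 10.9 to 14.97 ppm. In bulk tissue, fewer cells of a type and less RNA per cell cannot be told apart. The part of cell makeup in the differences below was not tested.

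The carriers of several substrates had lower coverage in CS-Mpc2-/- hearts, though with all 6 libraries none passed the test. The 3 CS-Mpc2-/- values lay below all 3 fl/fl values for 8 carriers, namely Ucp3, Slc25a22, Slc25a42, Slc25a29, Slc25a34, Slc25a20, Slc25a51 and Slc25a12. That is 20.5% of the 39, where 6.48% of all genes were lower in this way. Only 1 carrier lay above (2.56%, against 8.01% of all genes). Groups separate more easily with fewer libraries. Without fl/fl replicate 3, 13 carriers lay below and 3 above, against 18.9% and 24.4% of all genes, and without replicate 3 of both groups 16 lay below and 5 above, against 24.7% and 30.4%. The carriers above were 3 without CS-Mpc2-/- replicate 2 (15.1% of all genes) and 2 without CS-Mpc2-/- replicate 1 or 3 or fl/fl replicate 1 (10.5% to 16.6%). With all 6 libraries 0 carriers were called lower and 0 higher by limma at an adjusted p under 0.05, as were 0.00% of all genes in each direction, and the smallest adjusted p was 0.220. By the unadjusted p, 8 carriers were lower at a threshold of 0.05 (5.43% of all genes) and 1 higher (8.08% of all genes). The count of 8 was 5 without fl/fl replicate 1, fl/fl replicate 2, CS-Mpc2-/- replicate 1 or CS-Mpc2-/- replicate 2, against 2.05% to 3.78% of all genes. That of 1, Slc25a36, was 0 without fl/fl replicate 1 or 2, or CS-Mpc2-/- replicate 1 or 3, and under upper quartile scaling or limma without its trend.

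Calls depended on fl/fl replicate 3. Leaving out any of the other 5 libraries alone, CS-Mpc2-/- replicate 3 included, left 0 carriers called and 0.00% of all genes. Without fl/fl replicate 3, 7 carriers were called lower and 0 higher by limma over all genes at an adjusted p under 0.05. This is 17.9% of the carriers, against 4.40% of all genes called lower and 6.51% called higher. The 7 were Ucp3, Slc25a34, Slc25a42, Slc25a22, Slc25a20, Slc25a33 and Slc25a29. Without replicate 3 of both groups 7 carriers were also called lower and 0 higher, against 5.30% and 7.24% of all genes. With array weights, which give less weight to libraries that fit poorly, 6 were called lower and 0 higher, against 1.84% and 2.66% of all genes. Of the 8 carriers whose groups did not overlap, 7 also had an unadjusted p under 0.05, and in each of these fl/fl replicate 3 was the lowest fl/fl library. On the log2 scale its distance from the mean of the other fl/fl libraries was 0.42 to 0.82, with a median of 0.71, of their distance from the CS-Mpc2-/- mean. Leaving out this library, the fl/fl library nearest to CS-Mpc2-/-, therefore widens the differences, and the values without it below are a description and no independent support.

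**Figure D1:**
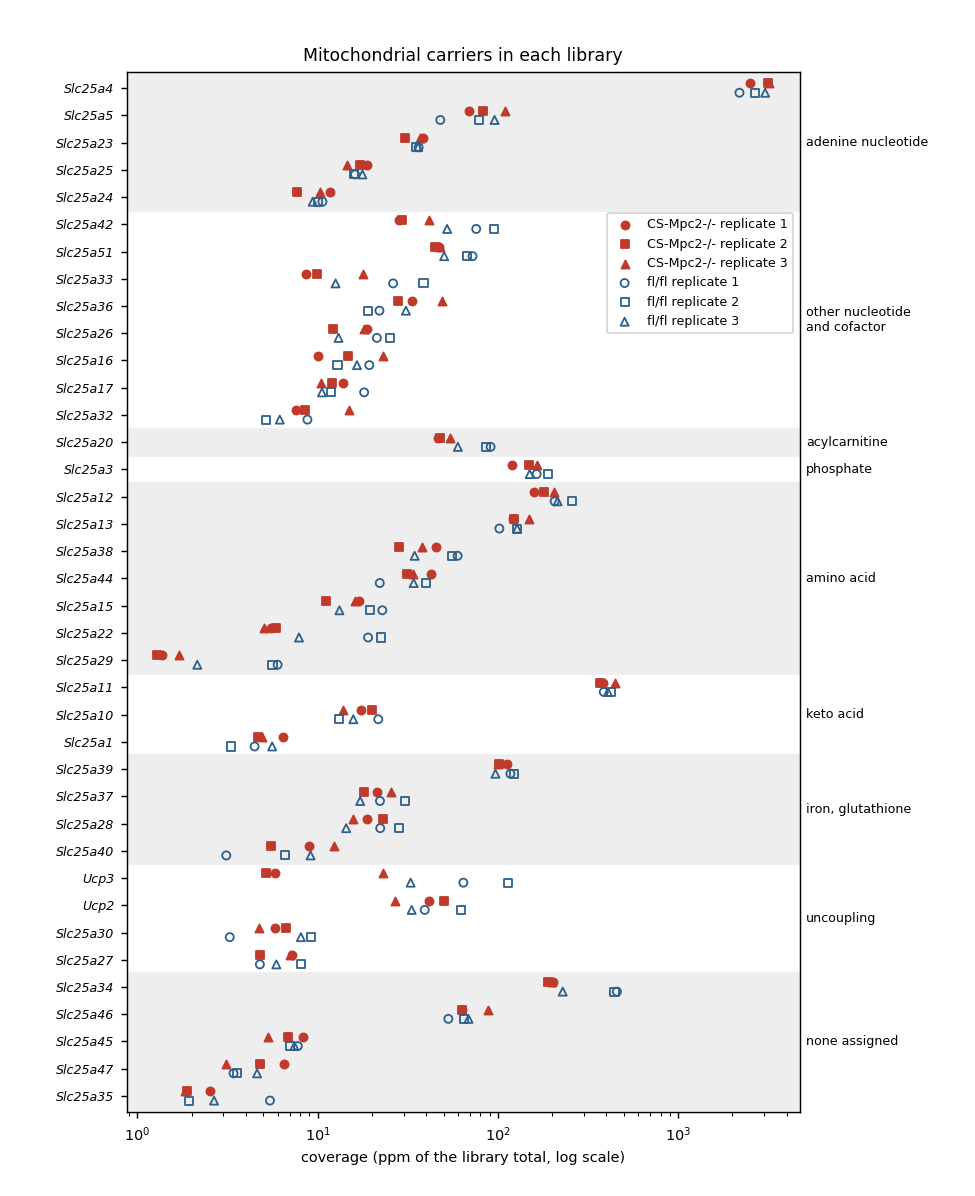
Coverage of 38 carriers in every library, in ppm of the library total on a log scale, grouped by substrate. Filled red symbols are CS-Mpc2-/- and open blue symbols fl/fl, with circles, squares and triangles for replicates 1, 2 and 3. Slc25a4 stands above all others in each library, and the triangle of fl/fl lies near the red symbols for Slc25a42, Slc25a22, Slc25a29 and Slc25a34.

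**Figure D2:**
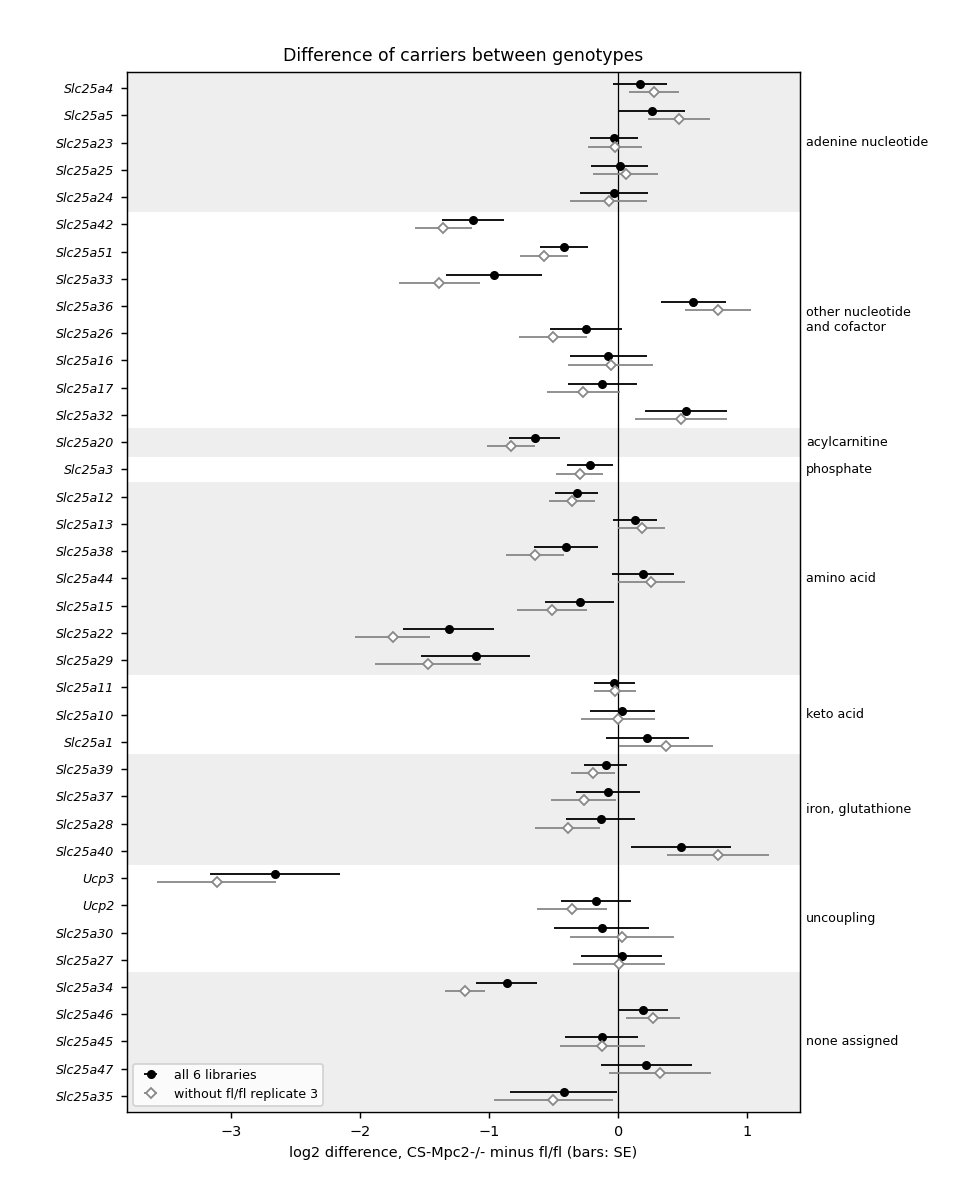
Log2 difference of 38 carriers, CS-Mpc2-/- minus fl/fl, with its SE, grouped by substrate. Filled circles use all 6 libraries and open diamonds leave out fl/fl replicate 3. Ucp3 lies lowest at -2.66, and the 28 carriers not named for a difference lie between -0.42 and 0.53 with all 6 libraries.

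The ADP/ATP carriers held the largest share of the family's level, and their groups overlapped. Slc25a4, the main ADP/ATP carrier of heart and skeletal muscle, had 2493, 3155 and 3188 ppm in CS-Mpc2-/- and 2188, 2667 and 3038 ppm in fl/fl. These ranges overlap, with a log2 difference of 0.17 ± 0.21 (SE, limma adjusted p = 0.756, and 0.394 to 0.977 over all alternatives). Slc25a5, the ADP/ATP carrier found in most tissues, had 69.0, 82.7 and 110.0 ppm in CS-Mpc2-/- and 47.9, 78.9 and 95.8 ppm in fl/fl. Per kilobase of the longest coding transcript, Slc25a4 averaged 1530 ppm in CS-Mpc2-/- and 1367 ppm in fl/fl, and Slc25a5 70.35 and 59.8 ppm. Slc25a4 was therefore 94.9% to 96.1% of this pair's level per kilobase in CS-Mpc2-/- and 95.3% to 96.7% in fl/fl. The groups of the calcium-regulated carriers of ATP-Mg and phosphate overlapped as well. Slc25a23 had 38.6, 30.3 and 36.9 ppm in CS-Mpc2-/- and 36.3, 35.2 and 36.1 ppm in fl/fl. Slc25a25 had 18.8, 17.2 and 14.5 ppm in CS-Mpc2-/- and 16.1, 15.95 and 17.7 ppm in fl/fl. Slc25a24 ranged from 7.64 to 11.7 ppm in CS-Mpc2-/- and from 9.39 to 10.6 ppm in fl/fl.

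Among all carriers per kilobase, Slc25a4 was followed by Slc25a11, with 233 ppm in CS-Mpc2-/- and 237.5 ppm in fl/fl. By group mean, Slc25a3 had 89.8 ppm per kilobase in CS-Mpc2-/- and 104 in fl/fl, and Slc25a34 had 73.8 in CS-Mpc2-/- and 141.0 in fl/fl. Their order varied by library. Slc25a34 was above Slc25a3 in CS-Mpc2-/- replicate 1 and in fl/fl replicates 1 and 2, and below it in the other libraries. Ucp3 had 2.37, 2.12 and 9.43 ppm per kilobase in CS-Mpc2-/-, ranking 34, 32 and 19 of the 39 carriers, and 26.3, 46.7 and 13.4 ppm per kilobase in fl/fl, ranking 11, 8 and 13. The summed coverage of all 39 carriers was 4296, 4923 and 5251 ppm in CS-Mpc2-/- and 4492, 5246 and 5012 ppm in fl/fl. Without Slc25a4 the sums were 1803, 1767 and 2063 ppm in CS-Mpc2-/- and 2304, 2580 and 1974 ppm in fl/fl. Slc25a4 was 62.2%, 67.9% and 64.7% of the family's summed level per kilobase in CS-Mpc2-/-. In fl/fl it was 53.6% and 55.8% in replicates 1 and 2 and 64.8% in replicate 3, which lies within the CS-Mpc2-/- range.

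The carriers of other nucleotides and cofactors split in direction. Slc25a42, which brings coenzyme A into the matrix, spans 70184340 to 70212305 of chromosome 8 (mm10, minus strand). It had 28.2, 29.4 and 41.6 ppm in CS-Mpc2-/- and 75.8, 94.9 and 52.3 ppm in fl/fl, a mean of 33.1 ± 7.47 against 74.3 ± 21.3 (SD, n = 3 each). The highest CS-Mpc2-/- library was thus below the lowest fl/fl library. The log2 difference was -1.13 ± 0.24 (SE) with an adjusted p of 0.220 in limma, and without fl/fl replicate 3 it was -1.35 ± 0.22 with an adjusted p of 0.00182 (0.000227 to 0.769 over all alternatives). Slc25a51, the NAD carrier, on chromosome 4 from 45395923 to 45408766, had 47.3, 44.8 and 47.5 ppm in CS-Mpc2-/- and 72.3, 67.3 and 50.3 ppm in fl/fl. Slc25a51 shares exon sequence with Gm25692 on the same strand. The gap between its highest CS-Mpc2-/- and lowest fl/fl library was narrow, and the log2 difference of -0.42 ± 0.19 (SE) was not called with all 6 libraries (limma adjusted p = 0.362) or without fl/fl replicate 3 (adjusted p = 0.0621, and 0.0521 to 0.793 over all alternatives).

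The pyrimidine nucleotide carriers Slc25a33 and Slc25a36 lay on opposite sides of 0. Slc25a33 (chromosome 4, 149744036 to 149774277, minus strand) had 8.57, 9.95 and 17.9 ppm in CS-Mpc2-/- and 26.2, 38.7 and 12.6 ppm in fl/fl. Its groups overlap only because CS-Mpc2-/- replicate 3 lies above fl/fl replicate 3. Slc25a33 shares exon sequence with Gm13068 on the other strand. With all 6 libraries the log2 difference of Slc25a33 was -0.96 ± 0.38 (SE, limma adjusted p = 0.308), and without fl/fl replicate 3 it was -1.39 ± 0.31 (adjusted p = 0.0130, and 0.00172 to 0.793 over all alternatives). Slc25a36 (chromosome 9, 97074961 to 97111157, minus strand) had 33.2, 27.97 and 48.7 ppm in CS-Mpc2-/- and 22.02, 19.0 and 30.9 ppm in fl/fl. Its log2 difference was 0.58 ± 0.25 (SE, limma adjusted p = 0.355, and 0.0672 to 0.793 over all alternatives). The ratio of Slc25a33 to Slc25a36 within a library does not depend on the scaling, and it was 0.258, 0.355 and 0.368 in CS-Mpc2-/- and 1.19, 2.04 and 0.407 in fl/fl. Every CS-Mpc2-/- library was below every fl/fl library, though fl/fl replicate 3 only just. The difference of the log2 ratio was -1.62 ± 0.70 (SE). With 1 library left out it ran from -2.27 without fl/fl replicate 3 to -1.11 without fl/fl replicate 2. Without replicate 3 of both groups it was -2.36. With all 6 libraries the two-sided exact permutation p was 0.1, the smallest that 3 against 3 libraries allow. After adjustment over the 9 ratios compared it was 0.225.

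The promoter windows of this pair are shown because the genes share a substrate class and their differences have opposite signs. Each runs from 250 bases before to 50 bases after the RefSeq start, 5′ to 3′ on the gene's minus strand (GRCm38.p6), at chr4:149774218-149774517 for Slc25a33 and chr9:97110992-97111291 for Slc25a36. Capitals mark the E-box CACGTG and the GC box GGGCGG, the GC box also as its reverse complement CCGCCC.
Slc25a33: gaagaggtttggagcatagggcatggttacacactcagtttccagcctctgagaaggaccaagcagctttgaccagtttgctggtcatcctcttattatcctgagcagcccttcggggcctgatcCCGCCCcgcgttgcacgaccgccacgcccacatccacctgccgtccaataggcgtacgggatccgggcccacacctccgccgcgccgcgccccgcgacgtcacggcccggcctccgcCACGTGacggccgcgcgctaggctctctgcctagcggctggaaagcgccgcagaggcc
Slc25a36: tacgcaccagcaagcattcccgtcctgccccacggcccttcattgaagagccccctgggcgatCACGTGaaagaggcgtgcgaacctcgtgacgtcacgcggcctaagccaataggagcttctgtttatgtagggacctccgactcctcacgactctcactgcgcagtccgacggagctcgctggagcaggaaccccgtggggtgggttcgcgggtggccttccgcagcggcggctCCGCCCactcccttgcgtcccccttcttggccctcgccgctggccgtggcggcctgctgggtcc
The E-box begins 8 bases before the start in Slc25a33 and 187 bases before it in Slc25a36. CACGTG was in 5 of 36 windows of carriers, or 13.9%, and in 7.15% of the 32851 windows of all genes. The GC box was in 26 of the 30 carriers with a window. By window, 86.1% of those of carriers and 35.7% of those of all genes held it. The GC box is made of G and C only, and the share of these bases differs between windows. It was 66.0% for Slc25a33 and 66.7% for Slc25a36, against a median of 52.7% over all windows. The part of base composition in these shares was not tested.

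The remaining cofactor carriers described here overlapped between the groups. Slc25a32, a carrier of folate, had 7.57, 8.53 and 14.9 ppm in CS-Mpc2-/- and 8.78, 5.18 and 6.16 ppm in fl/fl. Slc25a26, which imports S-adenosylmethionine, had 12.1 to 18.7 ppm in CS-Mpc2-/- and 13.1 to 25.2 ppm in fl/fl. Slc25a16 ranged from 10.1 to 23.1 ppm in CS-Mpc2-/- and from 12.9 to 19.4 ppm in fl/fl. Slc25a17, a carrier of the peroxisome, ranged from 10.48 to 13.8 and from 10.6 to 18.1 ppm.

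Slc25a20, which exchanges acylcarnitines for free carnitine and so admits long-chain fatty acids for beta-oxidation, was lower in every CS-Mpc2-/- library. It lies on chromosome 9 from 108662088 to 108684641 on the plus strand, with 0 exons shared with another annotated gene. It had 46.4, 47.5 and 54.5 ppm in CS-Mpc2-/- and 91.1, 86.0 and 60.0 ppm in fl/fl, or 49.5 ± 4.42 against 79.0 ± 16.7 (SD, n = 3 each). The log2 difference was -0.65 ± 0.20 (SE, limma adjusted p = 0.240), and without fl/fl replicate 3 it was -0.83 ± 0.19 (adjusted p = 0.0121, and 0.00475 to 0.769 over all alternatives). The library labelled CS-Mpc2-/- replicate 3 was the highest of its group and fl/fl replicate 3 the lowest of its own.

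All 6 listed partners of Slc25a20 in the carnitine shuttle had negative differences, with a median of -0.63 on the log2 scale (-0.77 without fl/fl replicate 3), while the median over all genes was 0.04. The groups did not overlap for 5 of the 6, against 6.48% of all genes. Without fl/fl replicate 3, 3 were called lower and 0 higher, against 4.40% and 6.51% of all genes. Cpt2, which re-forms acyl-CoA inside mitochondria, had 44.8, 29.8 and 54.6 ppm in CS-Mpc2-/- and 105, 120 and 57.2 ppm in fl/fl. Acsl1, which activates fatty acids with coenzyme A, had 587.5, 554 and 773.9 ppm in CS-Mpc2-/- and 1188, 1150 and 774.4 ppm in fl/fl. The groups of Acsl1 thus barely separated, and it is counted among the 5. Of 10 genes known as targets of the fatty acid receptor PPAR alpha, 9 had negative differences, as had 5504 of all 12072 genes, and the median was -0.45. Without fl/fl replicate 3 the median was -0.60, and 4 were called lower and 0 higher, against the same 4.40% and 6.51% of all genes. The 2 smallest unadjusted p-values in that list belonged to Acot1, an acyl-CoA thioesterase, with 8.09, 8.94 and 11.2 ppm in CS-Mpc2-/- and 23.7, 24.5 and 13.2 ppm in fl/fl, and Hadha, the trifunctional protein subunit of beta-oxidation. Hadha had 574, 601 and 731 ppm in CS-Mpc2-/- and 1109, 1204 and 801 ppm in fl/fl. With all 6 libraries 0 genes of either list were called by limma over all genes.

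**Figure D3:**
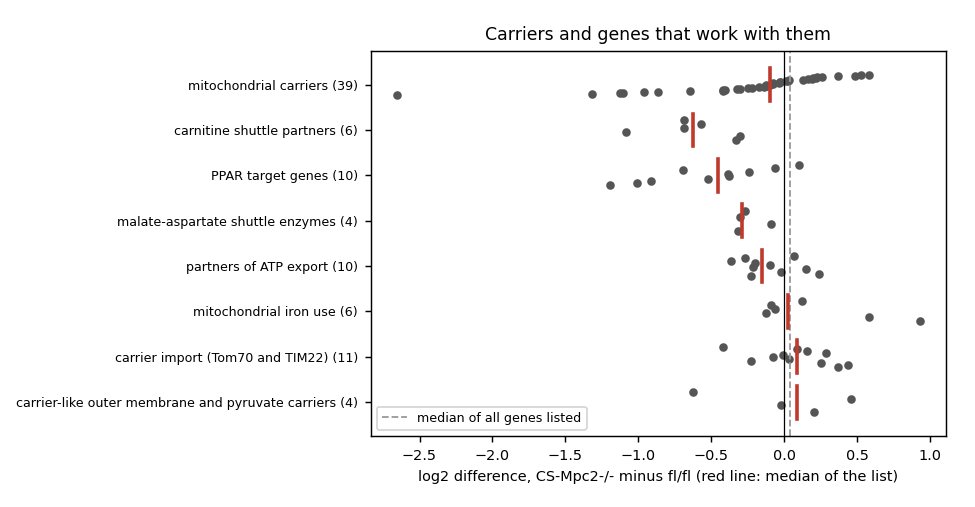
Log2 difference, CS-Mpc2-/- minus fl/fl with all 6 libraries, of each carrier and of each gene in 7 lists of partners. Points are genes, red lines the median of a list and the dashed line the median of all genes. The medians of the carnitine shuttle partners and PPAR targets, at -0.63 and -0.45, lie lowest.

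Several amino acid carriers were low in CS-Mpc2-/-. Their median log2 difference was -0.32 (-0.51 without fl/fl replicate 3) over 7 genes, 5 below 0 and 2 above. Slc25a22, a glutamate carrier, lies on chromosome 7 from 141429744 to 141437892 on the minus strand. It had 5.54, 5.89 and 5.07 ppm in CS-Mpc2-/- and 19.1, 22.6 and 7.88 ppm in fl/fl, or 5.50 ± 0.41 against 16.5 ± 7.68 (SD, n = 3 each). The CS-Mpc2-/- libraries were close together, and the fl/fl spread came from replicate 3. The lowest library of Slc25a22 held 1407 of the smallest steps, so its low levels rest on little coverage. The log2 difference was -1.31 ± 0.35 (SE, limma adjusted p = 0.220), and without fl/fl replicate 3 it was -1.75 ± 0.29 (adjusted p = 0.00201, and the same value to 0.769 over all alternatives).

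Slc25a29, a carrier of basic amino acids on chromosome 12 from 108825873 to 108835883, had 1.38, 1.29 and 1.69 ppm in CS-Mpc2-/- and 6.00, 5.62 and 2.15 ppm in fl/fl. All CS-Mpc2-/- values were again below all fl/fl values. Its log2 difference was -1.11 ± 0.42 (SE, limma adjusted p = 0.302), and without fl/fl replicate 3 it was -1.48 ± 0.41 (adjusted p = 0.0345, and the same value to 0.769 over all alternatives). Its lowest library held 395 of the smallest steps, so these levels are imprecise. Slc25a20 relative to Slc25a29 was 33.7, 36.8 and 32.2 in CS-Mpc2-/- and 15.2, 15.3 and 27.9 in fl/fl. The libraries did not overlap, with a difference of the log2 ratio of 0.87 ± 0.30 (SE, exact permutation p = 0.1, two-sided, adjusted p = 0.225). Adding 1 ppm to both genes, which bears on a gene as low as Slc25a29, gave 0.46.

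Slc25a12 and Slc25a13 are the aspartate/glutamate carriers of the malate-aspartate shuttle, and Slc25a12 is the form of heart, muscle and brain. Slc25a12 (chromosome 2, 71271063 to 71367749, minus strand) had 158, 180 and 205 ppm in CS-Mpc2-/- and 206, 258 and 214 ppm in fl/fl. The groups did not overlap by a narrow margin. The log2 difference was -0.32 ± 0.17 (SE, limma adjusted p = 0.430, and 0.0929 to 0.818 over all alternatives). Slc25a13 had 121, 122 and 148 ppm in CS-Mpc2-/- and 102, 128 and 128 ppm in fl/fl, which overlap. The ratio of Slc25a12 to Slc25a13 was 1.31, 1.47 and 1.38 in CS-Mpc2-/- and 2.03, 2.02 and 1.68 in fl/fl, lower in each CS-Mpc2-/- library than in any fl/fl library. The difference of the log2 ratio was -0.45 ± 0.10 (SE, exact permutation p = 0.1, two-sided, adjusted p = 0.225), and -0.54 to -0.41 with 1 library left out. The 4 enzymes of that shuttle, Got1, Got2, Mdh1 and Mdh2, all had negative differences with a median of -0.29, and 0 were called with all 6 libraries or without fl/fl replicate 3. The 2 smallest unadjusted p-values were those of the malate dehydrogenases. Mdh1 had 824, 917 and 913 ppm in CS-Mpc2-/- and 1208, 1097 and 977 ppm in fl/fl, and Mdh2 had 256, 344 and 275 ppm in CS-Mpc2-/- and 361, 396.5 and 298 ppm in fl/fl.

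The other amino acid carriers overlapped between groups. Slc25a38, which imports glycine for haem synthesis, had 45.3, 28.2 and 37.96 ppm in CS-Mpc2-/- and 59.8, 55.8 and 34.5 ppm in fl/fl. Slc25a15, the ornithine carrier, had 11.1 to 17.01 ppm in CS-Mpc2-/- and 13.2 to 22.8 ppm in fl/fl. Slc25a44, a carrier of branched-chain amino acids, had 31.4 to 42.7 ppm in CS-Mpc2-/- and 22.1 to 39.8 ppm in fl/fl.

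The keto acid carriers and the phosphate carrier showed no separation of the groups. Slc25a11, which exchanges oxoglutarate for malate in the malate-aspartate shuttle, had 385, 367 and 445 ppm in CS-Mpc2-/- and 387, 424 and 408 ppm in fl/fl. Its log2 difference was -0.03 ± 0.16 (SE). Slc25a10, the dicarboxylate carrier, had 17.4, 20.1 and 13.8 ppm in CS-Mpc2-/- and 21.7, 13.2 and 15.8 ppm in fl/fl. Slc25a1, which exports citrate, had 4.69 to 6.45 ppm in CS-Mpc2-/- and 3.32 to 5.59 ppm in fl/fl. Slc25a11 and Slc25a10 each overlap an exon of a gene on the other strand (Rnf167 and Gm11788). Slc25a3, which imports the phosphate used for ATP synthesis, had 120, 149 and 165 ppm in CS-Mpc2-/- and 164, 190 and 150 ppm in fl/fl, with a log2 difference of -0.22 ± 0.18 (SE). Of 10 partners of ATP export, 0 were called with all 6 libraries or without fl/fl replicate 3, and their median difference was -0.15. In that list 2 of the 10, the ATP synthase subunits Atp5a1 and Atp5b, were lower in every CS-Mpc2-/- library, against 6.48% of all genes. Their unadjusted p-values by limma were 0.0849 and 0.185. Atp5a1 had 2030, 2273 and 2416 ppm in CS-Mpc2-/- and 3132, 3018 and 2513 ppm in fl/fl, and Atp5b had 2355, 2821 and 2667 ppm in CS-Mpc2-/- and 3209, 3296 and 2935 ppm in fl/fl.

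The iron and glutathione carriers also overlapped. The mitoferrins, which bring iron into the matrix, were at 18.7, 23.0 and 15.7 ppm in CS-Mpc2-/- and 22.2, 28.3 and 14.4 ppm in fl/fl for Slc25a28. Slc25a37, the form used most by red cell precursors, had 21.3, 18.00 and 25.6 ppm in CS-Mpc2-/- and 22.2, 30.4 and 17.2 ppm in fl/fl. Slc25a39 had 112.8, 101.5 and 99.9 ppm in CS-Mpc2-/- and 117, 122.5 and 96.9 ppm in fl/fl. Slc25a40, its relative in glutathione import, had 8.90, 5.53 and 12.4 ppm in CS-Mpc2-/- and 3.11, 6.56 and 9.14 ppm in fl/fl. Among 6 genes of mitochondrial iron use, 0 were called with all 6 libraries, and 1, the cluster scaffold Iscu, was called higher without fl/fl replicate 3 (limma adjusted p = 0.0304), against 6.51% of all genes. Iscu had 45.4, 37.9 and 45.2 ppm in CS-Mpc2-/- and 20.6, 27.5 and 39.5 ppm in fl/fl.

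**Figure D4:**
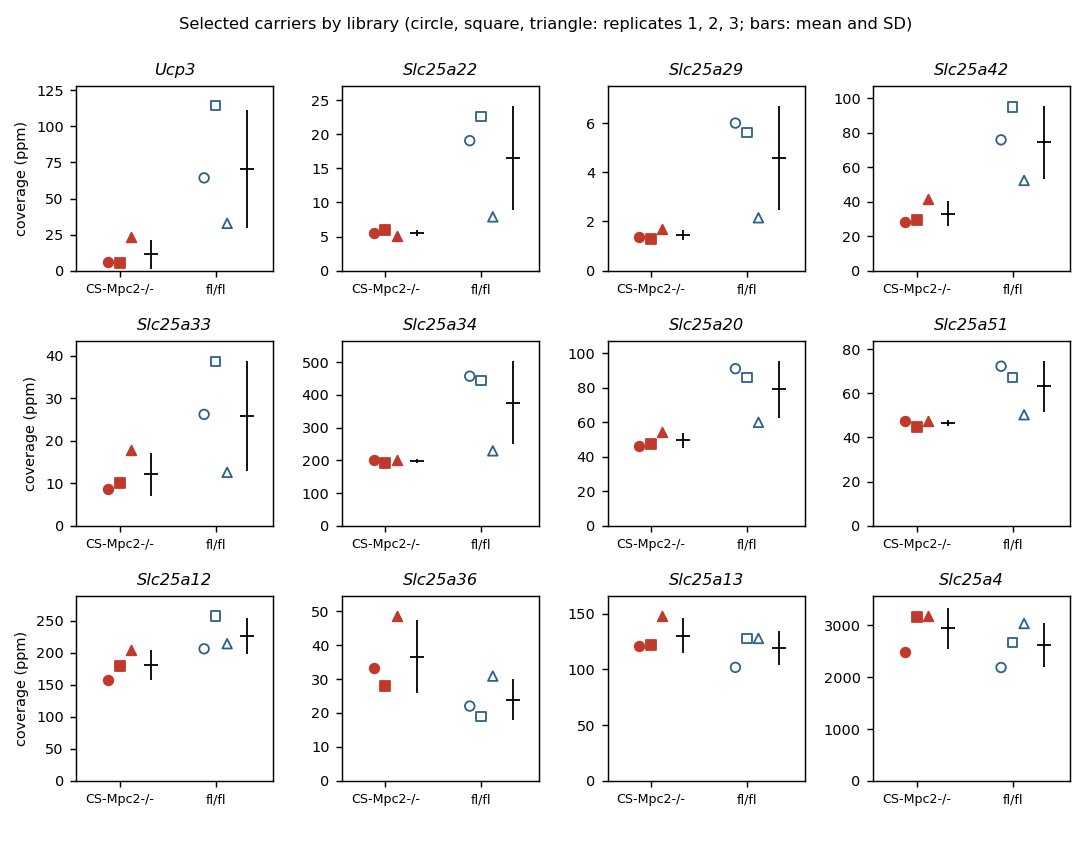
Coverage in ppm of 12 carriers in each library, with CS-Mpc2-/- in red on the left and fl/fl in blue on the right. Circles, squares and triangles are replicates 1, 2 and 3, and bars give the mean and SD of 3 libraries. The red points lie below all blue points for Ucp3, Slc25a22, Slc25a29, Slc25a42, Slc25a34, Slc25a20, Slc25a51 and Slc25a12, and overlap them for Slc25a33, Slc25a36, Slc25a13 and Slc25a4.

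Uncoupling proteins carry anions or protons across the inner membrane, and Ucp3 is the form of skeletal muscle and heart. Ucp3 had the largest difference of the 39 carriers. It had 5.80, 5.20 and 23.1 ppm in CS-Mpc2-/- and 64.3, 114 and 32.8 ppm in fl/fl, with a log2 difference of -2.66 ± 0.50 (SE, limma adjusted p = 0.220) and an adjusted p of 0.000906 without fl/fl replicate 3 (2.36e-06 to 0.769 over all alternatives). The library labelled CS-Mpc2-/- replicate 3, in which Mpc2 was not low, was the highest of its group, and fl/fl replicate 3 the lowest of its own. The lowest library of Ucp3 held 1657 of the smallest steps, so its low levels rest on little coverage too. Ucp2, found in many tissues and in immune cells, had 41.5, 50.4 and 27.0 ppm in CS-Mpc2-/- and 39.3, 62.5 and 33.2 ppm in fl/fl, which overlap.

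Ucp3 and Ucp2 are neighbours on chromosome 7, both on the plus strand. Ucp3 spans 100472990 to 100486432 and Ucp2 spans 100493337 to 100502020 of mm10, with 6904 bases between them. The ratio of Ucp3 to Ucp2 was 0.140, 0.103 and 0.854 in CS-Mpc2-/- and 1.64, 1.83 and 0.986 in fl/fl. All fl/fl libraries were above all CS-Mpc2-/- libraries. The difference of the log2 ratio was -2.63 ± 0.99 (SE, exact permutation p = 0.1, two-sided, adjusted p = 0.225). With 1 library left out it ran from -3.58 without the library labelled CS-Mpc2-/- replicate 3 to -2.05 without CS-Mpc2-/- replicate 2. Without replicate 3 of both groups it was -3.85. Ucp2 shares exon sequence with Dnajb13 on the other strand. The 2 promoter windows are shown because these genes are neighbours of 1 family. They are 300 bases each on the plus strand of GRCm38.p6, at chr7:100472741-100473040 for Ucp3 and chr7:100493108-100493407 for Ucp2. Capitals mark AGGTCA, the hexamer bound by nuclear receptors, and the GC box GGGCGG, each on either strand.
Ucp3: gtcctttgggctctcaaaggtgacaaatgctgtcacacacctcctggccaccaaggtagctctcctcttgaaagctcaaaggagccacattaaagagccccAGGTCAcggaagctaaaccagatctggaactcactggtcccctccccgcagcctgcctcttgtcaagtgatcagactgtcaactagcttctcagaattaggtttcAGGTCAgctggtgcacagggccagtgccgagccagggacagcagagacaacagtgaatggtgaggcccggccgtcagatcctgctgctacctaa
Ucp2: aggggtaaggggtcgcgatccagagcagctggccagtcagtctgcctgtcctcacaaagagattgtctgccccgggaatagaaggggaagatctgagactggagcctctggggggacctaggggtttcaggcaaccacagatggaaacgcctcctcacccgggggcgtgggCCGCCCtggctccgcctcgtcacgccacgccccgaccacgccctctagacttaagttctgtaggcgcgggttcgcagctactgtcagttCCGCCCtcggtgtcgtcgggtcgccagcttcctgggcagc
In Ucp3, AGGTCA begins 149 and 44 bases before the start and no GC box was found. In Ucp2 there was no AGGTCA and a GC box 79 bases before the start and another after it. AGGTCA was in 5 of 36 windows of carriers, or 13.9%, and in 16.3% of all windows. The direct repeat of this hexamer with a spacer of 1 base, on either strand, was in 0 of the carrier windows and in 0.04% of all. These are matches of letters in a short window and do not show binding.

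Slc25a27 and Slc25a30, relatives of the uncoupling proteins, were low in all libraries. Slc25a27 had 4.80 to 7.18 ppm in CS-Mpc2-/- and 4.78 to 8.07 ppm in fl/fl, and Slc25a30 had 4.71 to 6.71 and 3.25 to 9.14 ppm.

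Of the carriers to which no substrate was assigned here, Slc25a34 was by far the most covered. It lies on chromosome 4 from 141618824 to 141623821 on the minus strand, with 0 exons shared with another gene. It had 201, 190 and 199 ppm in CS-Mpc2-/- and 457, 443 and 229 ppm in fl/fl, or 197 ± 5.84 against 376.5 ± 128 (SD, n = 3 each). The CS-Mpc2-/- libraries were nearly equal, and fl/fl replicate 3 lay close to them. The log2 difference was -0.86 ± 0.24 (SE, limma adjusted p = 0.220), and without fl/fl replicate 3 it was -1.19 ± 0.16 (adjusted p = 0.000355, and 0.000119 to 0.769 over all alternatives). Of the carriers that were low with no overlap and an unadjusted p under 0.05, 6 had a promoter window, some more than 1. The window of Slc25a34 is shown because, among these 6 carriers, only Slc25a34 and Ucp3 had AGGTCA in a window. It is at chr4:141623785-141624084 on the minus strand of GRCm38.p6, and capitals mark AGGTCA as its reverse complement TGACCT and the GC box as CCGCCC.
Slc25a34: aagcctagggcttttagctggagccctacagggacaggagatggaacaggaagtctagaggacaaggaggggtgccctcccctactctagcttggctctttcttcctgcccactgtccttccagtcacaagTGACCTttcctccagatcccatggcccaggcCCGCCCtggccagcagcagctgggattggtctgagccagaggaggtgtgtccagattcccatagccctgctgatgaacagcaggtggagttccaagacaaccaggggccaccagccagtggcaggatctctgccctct
The hexamer begins 119 bases and the GC box 88 bases before the start. By window, AGGTCA was in 13.9% of those of carriers and in 16.3% of those of all genes. The window of Slc25a34 was picked for holding the hexamer, and binding was not tested.

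Slc25a46, which sits in the outer membrane and affects mitochondrial shape, had 63.5, 63.3 and 88.2 ppm in CS-Mpc2-/- and 53.1, 64.5 and 68.7 ppm in fl/fl. Slc25a45 had 5.29 to 8.26 ppm in CS-Mpc2-/- and 7.06 to 7.76 ppm in fl/fl, Slc25a47 3.09 to 6.53 and 3.41 to 4.61 ppm, and Slc25a35 1.85 to 2.52 and 1.93 to 5.44 ppm. The groups overlap for these 4 genes.

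Relations between kindred carriers were compared as 9 ratios within a library. Besides the 4 given above that separated the groups, 5 did not. Slc25a4 over Slc25a5 was 36.1, 38.2 and 29.0 in CS-Mpc2-/- and 45.7, 33.8 and 31.7 in fl/fl (exact permutation p = 0.7, two-sided). The difference of its log2 ratio was -0.10 ± 0.20 (SE). The differences were -0.06 ± 0.32 for Slc25a28 over Slc25a37, -0.67 ± 0.63 for Slc25a39 over Slc25a40, -0.04 ± 0.16 for Slc25a23 over Slc25a25 and -0.06 ± 0.35 for Slc25a11 over Slc25a10. The exact permutation p of these 4, two-sided, was 0.4 to 1.0.

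**Figure D5:**
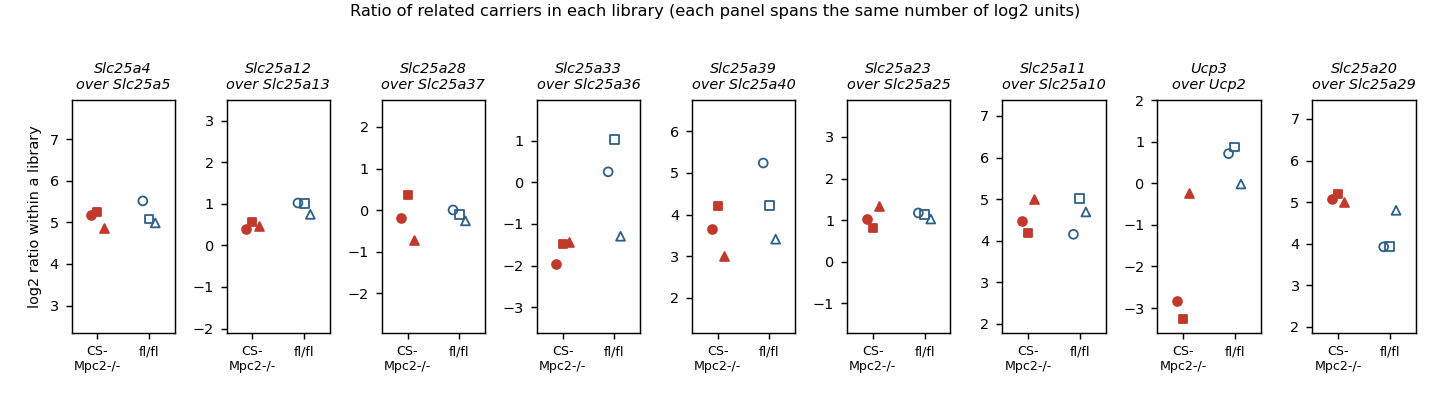
Log2 ratio of 2 related carriers within each library, with CS-Mpc2-/- in red on the left and fl/fl in blue on the right of each panel. Circles, squares and triangles are replicates 1, 2 and 3. The groups separate for Slc25a12 over Slc25a13, Slc25a33 over Slc25a36, Ucp3 over Ucp2 and Slc25a20 over Slc25a29, with fl/fl replicate 3 nearest to the red points in each.

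Carrier precursors reach the inner membrane through Tom70 and the TIM22 complex. Of 11 genes of that route, 0 were called with all 6 libraries or without fl/fl replicate 3, 7 had positive and 4 negative differences, and the median was 0.09. Tomm20, a receptor of the outer membrane, had 31.0, 35.6 and 37.5 ppm in CS-Mpc2-/- and 19.5, 24.5 and 33.6 ppm in fl/fl. Tomm70a, the receptor for carriers, had 127, 120 and 165 ppm in CS-Mpc2-/- and 91.9, 87.6 and 143 ppm in fl/fl. Mtch1 and Mtch2, carrier-like proteins of the outer membrane, had log2 differences of 0.21 ± 0.17 and -0.02 ± 0.20 (SE). Mpc1, the partner of Mpc2, had 100.9, 111 and 140 ppm in CS-Mpc2-/- and 67.6, 89.8 and 98.5 ppm in fl/fl. Every CS-Mpc2-/- library was thus above every fl/fl library, by a narrow margin, as for 8.01% of all genes. Mpc1 was not called (limma unadjusted p = 0.0370, adjusted p = 0.347).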

How the data were processed

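RNA of frozen left ventricle was depleted of ribosomal RNA and sequenced on an Ion Torrent Proton, per the labels' protocols, in 6 libraries. The deposited values hold read coverage per gene (a signal), and library totals that nearly coincide show scaling by the authors. They are whole multiples of a smallest step (tolerance 0.01) that behaves as aligned bases, so reads could not be recovered and no counting intervals are given. The authors also deposited a ratio of group means and an unadjusted p-value per gene. Coordinates refer to mm10, which the submitters' processing notes name. Nothing on aligner, counting or strand setting is given in the sources used here.

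Values were divided by the library total (ppm) and transformed as log2(value + 1), which understates the fold change of low genes. The filter, a mean of at least 1 ppm, removed 0 genes. Groups were compared, two-sided, by limma 3.58.1 in R 4.3.3 (eBayes with intensity trend, group as the only term). Adjusted p-values are Benjamini-Hochberg values across the 12072 genes, called under 0.05. The step was tested on simulated data in which no library stood apart, unlike fl/fl replicate 3 here. Ratios of carriers were compared by an exact permutation test (scipy 1.17.1), which has 20 arrangements and cannot go below 0.1. The design planned 10 ratios, of which 9 could be formed. The design foresaw a signal, and the planned test for it was used.

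Levels per kilobase use the longest coding transcript of GENCODE M21, which also gave positions, and promoter windows come from RefSeq (GRCm38.p6). Windows were found for 30 of the 39 carriers. Carriers were named with values in each library where the unadjusted p was under 0.05 or the groups did not overlap, as members of a ratio, and as the highest of a substrate class per kilobase. Most others were given by range. In the partner lists, the 2 members with the smallest unadjusted p were named. Results for 1 carrier and 1 partner gene that this rule names are not reported here. Levels of the cell type markers were summed over the markers listed. The members, classes and lists were chosen with earlier results of these data known. Each library is a separate pool of hearts.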

Additional observations from a re-analysis of the deposited data

How the results depend on the processing

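Each library in turn, replicate 3 of both groups, upper quartile and median-of-ratios scaling, pseudocounts of 0.1 and 5 ppm, omission of the filter, a minimum mean of 5 ppm, limma without the trend, robust estimation, array weights and a replicate block were tried. The cause of each move below was not tested. Carriers called lower were 0 with all 6 libraries, 0 to 7 with 1 library left out, 7 without replicate 3 of both groups and 6 with array weights (1.84% of all genes), and 0 were called higher in each. At an unadjusted p under 0.05 5 to 9 were lower with 1 library left out (2.05% to 11.1% of all genes) and 11 without replicate 3 of both groups (11.5% of all genes), and 0 to 1 were higher. Upper quartile scaling and limma without the trend gave 0 higher. Carriers without overlap were 8 to 13 lower and 1 to 3 higher with 1 library left out (8.26% to 18.9% and 10.5% to 24.4% of all genes), and 16 lower and 5 higher without replicate 3 of both groups (24.7% and 30.4% of all genes). Under the minimum mean of 5 ppm, Slc25a29 drops out and gives no value.

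The median log2 difference of a class ranged, with 1 library left out, from -0.83 to -0.53 for acylcarnitine (1 gene), -0.068 to 0.11 for adenine nucleotides, -0.0017 to 0.22 for keto acids, -0.26 to 0.020 for carriers with no substrate assigned, and -0.33 to 0.051 for other nucleotides and cofactors. Without replicate 3 of both groups these were -0.90, 0.16, 0.14, 0.022 and -0.34 in that order. The uncoupling class (-0.38 to 0.097) and the iron and glutathione class (-0.23 to 0.0996) also crossed 0 with 1 library left out. Ratios that changed sign, all near 0, ranged with 1 library left out from -0.20 to 0.063 for Slc25a4 over Slc25a5, -0.33 to 0.20 for Slc25a28 over Slc25a37, -0.18 to 0.081 for Slc25a23 over Slc25a25 and -0.29 to 0.13 for Slc25a11 over Slc25a10. Without replicate 3 of both groups Slc25a28 over Slc25a37 was 0.13. Among 186 fits of the 11 carriers with an unadjusted p under 0.05 or no overlap 0 changed direction, and 20 were called where the fit with all 6 libraries made no call. These carriers were chosen from the same libraries. Where groups do not overlap, leaving out a library cannot reverse the sign. The unchanged directions are therefore no independent support.

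Deviations of same-numbered libraries from their group means had correlations across genes of 0.08, -0.04 and -0.07 for numbers 1, 2 and 3. Those of differently numbered libraries ran from -0.13 to 0.14. With 3 libraries a group, these values cannot decide whether the numbers pair the libraries. The replicate block left 0 carriers called lower, 8 lower and 1 higher at an unadjusted p under 0.05. Depth limits the low carriers most, since 7 of them rest on fewer than 500 of the smallest steps in their lowest library.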

Other observations

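In the authors' deposited table, Slc25a42 had a ratio of 0.445 (CS-Mpc2-/- over fl/fl) with an unadjusted p of 0.0340, and Slc25a20 a ratio of 0.626 with an unadjusted p of 0.0413. For Ucp3 the authors' deposited table gives a ratio of 0.161 with an unadjusted p of 0.0731.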
